A study of Homo sapiens with 62 samples.

Results

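The genes described are 10 components of the Notch pathway, 10 of the 29794 genes in the deposited tables: the ligand genes JAG1, JAG2 and DLL1, the receptor genes NOTCH1, NOTCH2 and NOTCH3, and the target genes HEY1, HES1, HES4 and NRARP. They were taken by gene name. The set was chosen by the T>C reads of HEY1, which were higher in T3M-4 cells after degradation of KLF5, so every value of that comparison is given below as a description, with no test.

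The data are SLAM-seq libraries of 2 human pancreatic ductal adenocarcinoma (PDAC) lines, AsPC-1, used as a model of the classical subtype, and T3M-4, used as a model of the basal-like subtype. Cells were given 4-thiouridine (4sU) for 2 h before harvest, and a read with T>C conversions marks RNA made while 4sU was present. All libraries of both lines, controls included, carry the genotype FKBP12-F36V-FLAG-KLF5_sgEndogenousKLF5: KLF5, a Krüppel-like transcription factor, was supplied as a degron-tagged lentiviral cDNA while the endogenous gene was targeted with Cas9 and an sgRNA, and cells were selected with antibiotics, so the tagged copy is not under its own promoter. In AsPC-1 there were 10 libraries treated for 4 h with the degrader dTAGv-1 (dTAG) and 10 with its inactive analogue dTAGv-1-NEG (NEG), 5 treated for 4 h with CB-6644, which blocks the ATPase activity of RUVBL1/2, 5 with the solvent DMSO, 4 treated for 4 h with NVP-2, which blocks the elongation kinase CDK9, and 4 each with CB-6644 and DMSO for 12 h. T3M-4 had NEG, dTAG, DMSO, NVP-2 and CB-6644 groups of 4 libraries, all at 4 h. Replicate numbers name the experiment first (replicate 2.1 is library 1 of experiment 2). Degradation acts on the tagged protein, so RNA does not check it.

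Notch signaling passes between touching cells. A Jagged or Delta-like ligand on one cell binds a Notch receptor on its neighbor, ADAM proteases and then γ-secretase cut the receptor, and the released intracellular domain enters the nucleus, where it joins the DNA-binding protein RBPJ and a Mastermind coactivator to turn on genes of the HES and HEY families and NRARP. HES and HEY proteins are repressors, several of which also repress their own genes, and NRARP acts back on the Notch complex as an inhibitor. In the pancreas the pathway is known for holding progenitor cells back from differentiation and for its activity in ductal cells and in PDAC.

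The RBPJ core motif was sought in the promoters, since HES1 is a direct RBPJ target by textbook knowledge. RefSeq promoter windows (GRCh38.p14, 250 bases before to 50 after the gene start) were matched for 8 of the 10 genes. The core TGGGAA, or TTCCCA on the other strand, was present in 2 of these 8, HES1 and HES4, against 24% of all 34943 such windows. The count is thus near that background, and the core was not particular to these genes. The 250 bases before the start are shown for both, 5′ to 3′ on the strand of the gene, with the core in capitals, HES1 at chr3:194135898-194136147 (plus strand) and HES4 at chr1:1000098-1000347 (minus strand). HES1 had 2 copies of TGGGAA in the same orientation, beginning 84 and 70 bases before the start, and HES4 had 1 copy, beginning 76 bases before the start. Variants of this core were not sought and are not marked. The JAG1 stretch (chr20:10674000-10674249, minus strand) is shown because JAG1 was the member called after KLF5 degradation in AsPC-1. It held 0 copies of the RBPJ core, and its capitals mark the GC box CCGCCC or GGGCGG, a kind of element that Krüppel-like factors and SP1 can bind and that 44.9% of all windows held. The GC box was not particular to JAG1, which had 3 copies in its whole window. HES4, NOTCH2 and JAG2 had 2 copies each, NRARP and NOTCH1 4 each, NOTCH3 5 and HES1 0. No marked copy overlapped another motif sought, the CACCC box CCACCC or GGGTGG among them, which 34.3% of windows held. A match is a stretch of letters and no measure of binding.
HES1: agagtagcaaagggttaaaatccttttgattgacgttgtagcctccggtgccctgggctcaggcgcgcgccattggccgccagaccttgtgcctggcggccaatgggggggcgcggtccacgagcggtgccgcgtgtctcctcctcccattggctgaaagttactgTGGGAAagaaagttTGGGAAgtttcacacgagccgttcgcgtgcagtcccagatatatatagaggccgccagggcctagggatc
HES4: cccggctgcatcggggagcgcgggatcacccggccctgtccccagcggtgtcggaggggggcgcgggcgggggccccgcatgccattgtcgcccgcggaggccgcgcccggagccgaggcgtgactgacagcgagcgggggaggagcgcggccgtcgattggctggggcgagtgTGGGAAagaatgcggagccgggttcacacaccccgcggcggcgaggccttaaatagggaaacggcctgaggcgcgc
JAG1: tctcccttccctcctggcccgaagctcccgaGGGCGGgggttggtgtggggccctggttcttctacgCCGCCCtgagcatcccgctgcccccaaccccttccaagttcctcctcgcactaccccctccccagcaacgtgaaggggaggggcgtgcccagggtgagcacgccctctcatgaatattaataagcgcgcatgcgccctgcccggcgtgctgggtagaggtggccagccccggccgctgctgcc

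An AsPC-1 library held 82676553 to 200298262 reads in all, of which 2240998 to 18311982 were T>C reads, and a T3M-4 library 111132257 to 244524608, of which 3714015 to 27982537 were T>C reads. Levels are given as CPM, the counts of a gene scaled to TMM-adjusted library totals, and the labelled share of a gene is the percentage of its reads that carried conversions. Summed over EPCAM, CDH1, KRT8, KRT18 and KRT19, epithelial markers in DMSO at 4 h were between 3901 and 7520 CPM of all reads in AsPC-1 and between 1299 and 2093 in T3M-4. The basal-like markers TP63, KRT5, KRT6A, KRT17 and S100A2 summed to 16.2 to 57.2 CPM and to 2672 to 4296 CPM, and the classical markers HNF4A, GATA6, TFF1 and FA2H to 38.0 to 48.3 and 7.51 to 15.6 CPM. Basal-like markers were thus the higher in T3M-4 and classical markers in AsPC-1, as the lines are labelled. Endothelial markers, whose cells also use HEY1 and JAG1, stayed at or under 0.0436 CPM in AsPC-1, with CDH5 and TEK at 0. In T3M-4 they were between 0.905 and 1.118 CPM. Fibroblast markers were higher, between 7.022 and 16.03 CPM in AsPC-1, where LUM had the highest mean (9.301 CPM). In T3M-4 they were between 6.85 and 9.86 CPM, with COL1A1 highest (mean 6.996 CPM). Leukocyte markers were between 0.5228 and 3.128 CPM in AsPC-1 and between 0.09717 and 0.9072 CPM in T3M-4. The source of these reads was not tested. Clustered by their most variable genes other than the 10 and cut into 3 sets, the 42 AsPC-1 libraries gave sets of 17, 17 and 8 that cut across treatments. The number of sets was a choice and was not tested. Among the dTAG and NEG libraries, the set of 8 matched experiment 2, with the same JAG1 means of T>C reads (48.3 and 45.8 CPM).

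The 10 genes were first compared between the lines in DMSO at 4 h, on all reads. HEY1 and NOTCH3 were close to absent in AsPC-1 and present in T3M-4, JAG2, HES4 and NRARP were higher in T3M-4, and JAG1 was higher in AsPC-1. Of the 9 genes tested, 6 passed the edgeR quasi-likelihood test at a Benjamini-Hochberg adjusted p under 0.05, and 55.7% of the 15464 genes tested passed it between these lines, so most genes differed and the count is near that background. CPM in this comparison are scaled over both lines together.

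Among the ligands, JAG2 had 57.2 ± 23.2 CPM (SD, n = 4) in T3M-4, with libraries from 30.6 to 80.2, and 2.42 ± 1.84 CPM (SD, n = 5) in AsPC-1, with libraries from 0.535 to 5.31. Its log2 difference was 4.56 (SE 0.59, edgeR adjusted p = 8.91e-05), and the lines did not overlap. JAG1, the ligand gene mutated in Alagille syndrome, went the other way, with 13.9 ± 1.06 CPM (SD, n = 5) in AsPC-1 and 7.69 ± 1.14 CPM (SD, n = 4) in T3M-4, a log2 difference of -0.85 (SE 0.15, edgeR adjusted p = 0.000693). The lowest AsPC-1 library, at 12.6 CPM, lay above the highest T3M-4 library, at 9.32 CPM. DLL1, a Delta-like ligand gene, was listed at 0 in all 62 T>C columns and all 61 usable all-reads columns, so nothing can be said of it here.

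Of the receptors, NOTCH1 and NOTCH2 did not pass the test between the lines. NOTCH1 had 28.1 ± 8.54 CPM (SD, n = 5) in AsPC-1 and 33.3 ± 4.79 CPM (SD, n = 4) in T3M-4 (log2 0.25, SE 0.22, edgeR adjusted p = 0.356). NOTCH2 had 3.99 ± 0.97 and 5.29 ± 1.78 CPM (log2 0.40, SE 0.28, edgeR adjusted p = 0.237). NOTCH3, a receptor best known from vascular smooth muscle, had 23 reads in all 5 AsPC-1 DMSO libraries together, while its 4 T3M-4 libraries held 2.14 ± 0.415 CPM (SD) from 1455 reads (edgeR adjusted p = 6.49e-05). No fold is given for NOTCH3 or HEY1, since the AsPC-1 level rests on so few reads.

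HEY1 had the same kind of pattern among the targets. Its 5 AsPC-1 DMSO libraries held 21 reads together, every nonzero AsPC-1 count of the gene being a multiple of 7, which leaves fewer independent reads than the count. T3M-4 had 8.58 ± 3.54 CPM (SD, n = 4), between 4.51 and 12.7 CPM, from 5710 reads (edgeR adjusted p = 1.38e-05). Many, though not all, T>C counts of HEY1 in T3M-4 were multiples of 7 as well. Examples are 875 and 784 in DMSO replicates 1.1 and 1.2, and 56 and 56 in NVP-2 replicates 1.1 and 1.2. There too, independent reads may be fewer than the counts. HES4 had 34.9 ± 7.92 CPM in T3M-4 and 11.7 ± 4.85 in AsPC-1 (log2 1.57, SE 0.32, edgeR adjusted p = 0.00164). NRARP had 18.2 ± 1.82 and 6.14 ± 0.385 CPM (log2 1.57, SE 0.13, edgeR adjusted p = 5.59e-06), and neither HES4 nor NRARP overlapped between lines. HES1, at 54.7 ± 7.01 CPM in T3M-4 and 43.1 ± 6.4 in AsPC-1, did not pass on all reads (log2 0.35, SE 0.15, edgeR adjusted p = 0.0776) and did on T>C reads (log2 0.86, SE 0.17, edgeR adjusted p = 0.00134). Counts of HES4 were all multiples of 3 and those of JAG2 of 2 in both lines, and a constant multiple leaves a fold unchanged. Many T>C counts of NOTCH1 also shared a common factor, such as 18, 72, 153 and 153 in the AsPC-1 NVP-2 libraries. Counts of these genes therefore overstate the number of independent reads.

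**Figure D1:**
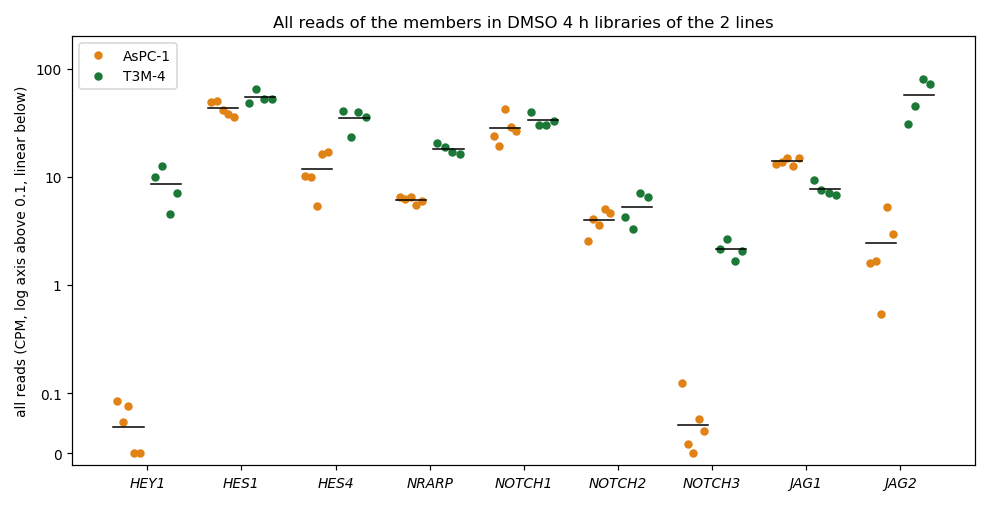
Level of 9 genes in DMSO at 4 h, in CPM of all reads on an axis that is logarithmic above 0.1 and linear below, with 1 point per library for AsPC-1 (5 libraries, orange) and T3M-4 (4 libraries, green) and a line at the mean. HEY1, NOTCH3 and JAG2 separate the lines most, and JAG1 is the member that is higher in AsPC-1, at 13.9 against 7.69 CPM.

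The labelled share ordered the genes by how much of their RNA carried conversions after 2 h, and this order was nearly the same in both lines. HES1, whose mRNA is known to be short-lived, had the highest share, 48.7% ± 1.36 (SD, n = 5) in AsPC-1 and 76.9% ± 4.25 (SD, n = 4) in T3M-4, the 97.1st and 99.1st percentile of all genes with enough reads. NRARP (42.2% and 55.9%) and JAG1 (38.7% and 49.4%) followed, both above the 91st percentile in each line, and HEY1 had 44.1% ± 10.5 in T3M-4. NOTCH1 had 28.5% and 34.7%, NOTCH2 14.6% and 18.2%, JAG2 10.6% and 16.3%, HES4 11.03% and 8.69%, and NOTCH3 8.19% in T3M-4, beside a median over all genes of 15.6% and 17.9%. In T3M-4 the library values of NRARP, JAG1 and HEY1 overlapped one another, and those of HES1, from 71.5% to 80.5%, lay above them all. HES1 was also the 1 of 7 genes whose share was called different between the lines (log2 0.66, SE 0.09, edgeR adjusted p = 0.00134). Beside it 15.3% of 11642 genes were called, so the count is near that background. The others were not called and lay between log2 -0.32 (HES4) and 0.58 (JAG2). The share depends on labelling as well as on turnover, and libraries of T3M-4 had 11.1% to 14.1% of their reads labelled against 9.36% to 10.6% in AsPC-1.

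After dTAG in T3M-4, T>C reads of HEY1 and JAG1 were higher and those of HES1 and, by little, NOTCH2 lower than in NEG, with no overlap between the 4 and 4 libraries. How many of all genes lacked overlap in this way was not counted. HEY1, a repressor of the hairy and enhancer-of-split-related family, had 66.4, 74.3, 63.5 and 73.3 CPM of T>C reads after dTAG (replicates 1.1, 1.2, 2.1 and 2.2) and 20.2, 25.0, 13.3 and 23.6 CPM in NEG. These are means of 69.4 ± 5.25 and 20.5 ± 5.21 CPM (SD, n = 4), a log2 difference of 1.75 (SE 0.22), which was 1.65 in batch 1 and 1.88 in batch 2. In all reads, HEY1 had 17.4, 19.9, 13.5 and 13.4 CPM after dTAG and 7.0, 8.16, 5.04 and 6.12 CPM in NEG, a smaller difference of 1.27 (SE 0.20). Its labelled share was 53.2%, 55.5%, 64.4% and 68.8% after dTAG and 39.1%, 42.0%, 33.6% and 47.4% in NEG. HEY1 was thus higher in newly made RNA, in total RNA and in the share that was new in each of the 4 dTAG libraries.

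JAG1 had 49.0, 49.1, 47.0 and 65.0 CPM of T>C reads after dTAG in T3M-4 and 34.1, 31.5, 25.4 and 25.9 CPM in NEG (log2 0.83, SE 0.19), and its all reads differed by 0.81 (SE 0.14), again with no overlap. Its labelled share did not separate the groups, at 50.8% ± 1.14 after dTAG and 47.7% ± 5.81 in NEG (SD, n = 4). HES1 had 134, 211, 224 and 223 CPM of T>C reads after dTAG and 312, 329, 311 and 254 CPM in NEG (log2 -0.62, SE 0.20), while its share was 73.4% and 74.8%. In all reads HES1 differed by -0.53 (SE 0.20), and the groups overlapped, with dTAG libraries up to 45.2 CPM and NEG libraries down to 43.2 CPM. So the T>C reads of HEY1 and HES1, both targets of the same pathway, lay in opposite directions from NEG, and no value of this comparison was tested.

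The other members lay closer to NEG in T3M-4. NOTCH2 was lower in all 4 dTAG libraries, but its means differed little, 6.19 ± 0.411 and 6.96 ± 0.325 CPM (SD, n = 4). NOTCH1 (log2 -0.38, SE 0.22), NRARP (-0.33, SE 0.19), HES4 (-0.15, SE 0.28), JAG2 (-0.04, SE 0.29) and NOTCH3 (0.51, SE 1.01) each overlapped between the groups. Scaling T>C reads by the total of all reads moved the median gene of this comparison by 0.11 on the log2 scale and moved JAG2 to 0.07, while the other differences kept their sign.

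**Figure D2:**
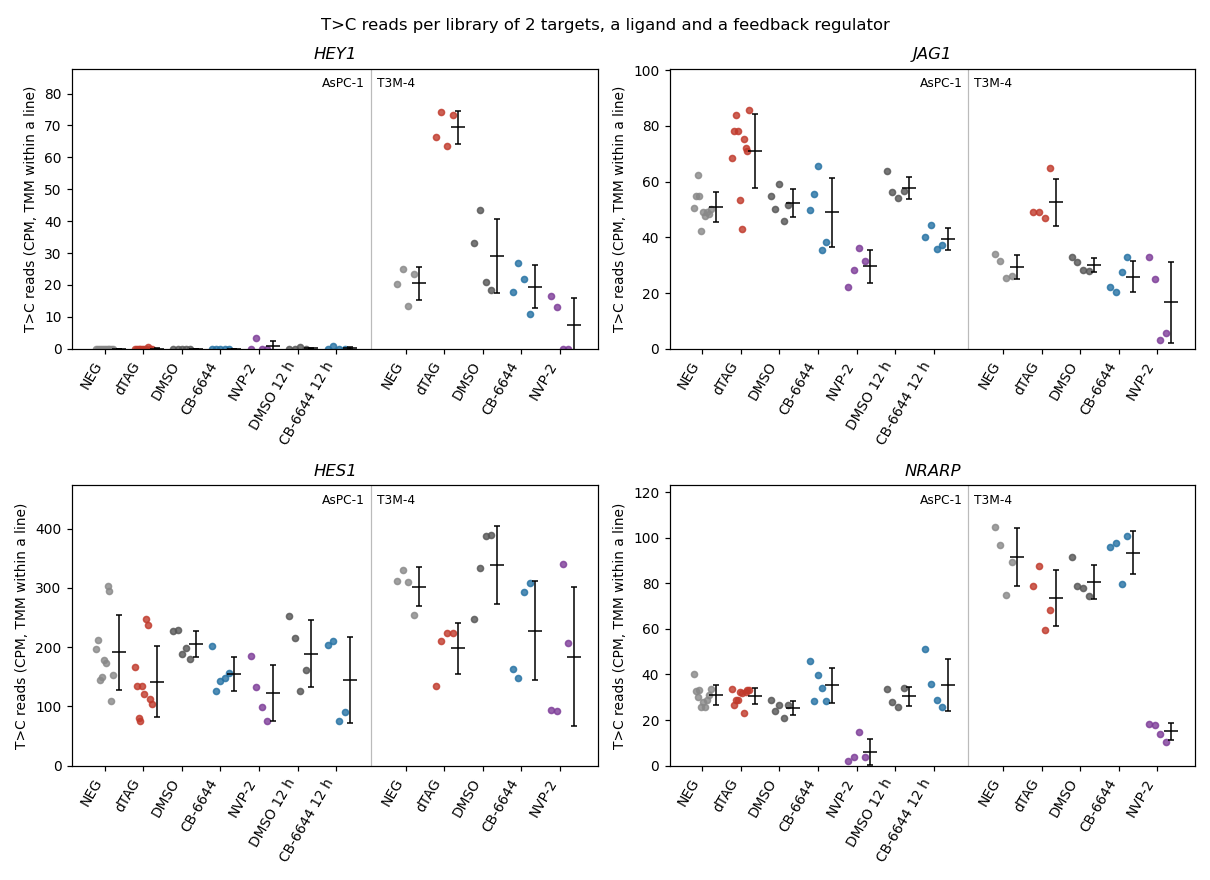
T>C reads of HEY1, JAG1, HES1 and NRARP in CPM for every group of both lines, with 1 point per library and the mean and SD beside the points. In T3M-4 the 4 dTAG libraries of HEY1, from 63.5 to 74.3 CPM, lie above all other T3M-4 libraries, while in AsPC-1 HEY1 is at 0 in 38 of 42 libraries and reaches 3.26 CPM in 1 NVP-2 library.

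The same comparison in AsPC-1, with 10 libraries a group, could be tested, although it is the counterpart of the one that chose the genes. JAG1 rose and was the 1 member of 7 tested to be called, beside 2.4% of 11696 genes (281, of which 54 were higher and 227 lower). T>C reads of JAG1 were between 42.4 and 62.2 CPM in NEG, with a median of 49.8, and between 43.0 and 85.6 CPM after dTAG, with a median of 73.6. The log2 difference was 0.49 (SE 0.11, edgeR adjusted p = 0.0161), and 8 of the 10 dTAG libraries lay above the highest NEG library. All reads of JAG1 rose as well, from a median of 13.1 to 18.1 CPM (log2 0.46, SE 0.08, edgeR adjusted p = 0.00706), the only member called there beside 0.797% of 13931 genes (111, and 229 with the experiment as a block).

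The rise of JAG1 was uneven over the experiments. The ratio of dTAG to NEG means was 1.39 in experiment 1, 1.06 in experiment 2, with 2 libraries a group (48.3 and 45.8 CPM), and 1.56 in experiment 3. Without experiment 1 the log2 difference was 0.49 with an edgeR adjusted p of 0.339, without experiment 2 it was 0.56 and called, and batch 1 alone (experiments 1 and 2) gave 0.37 (adjusted p = 0.426) and batch 2 alone (experiment 3) 0.62 (adjusted p = 0.21). With T>C reads scaled by the total of all reads, which moved the median gene by -0.22 and gave 12 genes higher and 929 lower, JAG1 was at 0.24 (adjusted p = 0.311). With the experiment as a block it stayed called, at 0.47 (edgeR adjusted p = 0.00209), while the number of genes called went from 281 to 447.

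HES1 did not pass in AsPC-1, at 128 CPM of T>C reads in the median dTAG library (75.2 to 248) and 176 CPM in the median NEG library (110 to 303), a log2 difference of -0.43 (SE 0.22, edgeR adjusted p = 0.47). Its level differed between the 3 library sets, with NEG means of 252, 139 and 176 CPM and dTAG means of 197, 92.9 and 128 CPM, so that dTAG was lower within each set. With set and experiment combined as a block, an alternative chosen after the data were seen, the difference was -0.47 (SE 0.09, edgeR adjusted p = 0.00118). The part of the sets or of the experiments in this result was not tested further. NOTCH1 (-0.35, SE 0.17, adjusted p = 0.417), JAG2 (-0.51, SE 0.38, adjusted p = 0.706), HES4 (0.27, SE 0.33), NOTCH2 (0.04, SE 0.17) and NRARP (-0.01, SE 0.10) did not pass either. HEY1 had T>C reads in 1 of 10 dTAG libraries (0.481 CPM) and in 0 of 10 NEG libraries, and NOTCH3 in 0 of the 10 dTAG libraries, so neither could be tested. Whether the response of any gene to dTAG differed between the lines was not tested.

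**Figure D3:**
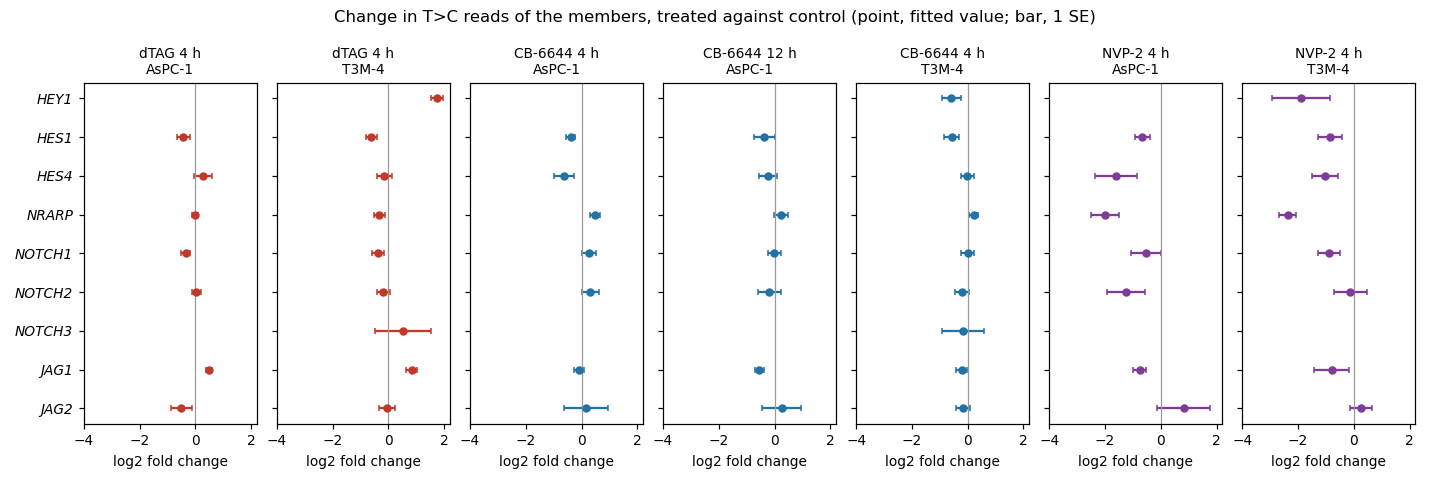
Log2 fold change of T>C reads for each member in each treatment against its control, with bars of 1 SE, for the genes that could be fitted. JAG1 lies above 0 after dTAG in both lines, at 0.49 in AsPC-1 and 0.83 in T3M-4, HES1 lies below 0 at -0.43 and -0.62, and the T3M-4 value of HEY1, 1.75, is the value that chose the genes.

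The labelled share fell after dTAG in AsPC-1 for 4 of 7 members: HES1 (log2 -0.22, SE 0.06, edgeR adjusted p = 0.0111), JAG1 (-0.25, SE 0.08, adjusted p = 0.0198), NOTCH1 (-0.33, SE 0.11, adjusted p = 0.0232) and NOTCH2 (-0.33, SE 0.13, adjusted p = 0.0439). HES1 went from 44.1% ± 4.07 in 10 NEG libraries to 37.8% ± 2.51 in 9 dTAG libraries, and JAG1 from 38.5% ± 3.78 to 32.4% ± 4.18 (SD). This was shared with the library, since the share was lower for 40.8% of 11581 genes, the median gene moved by -0.26, and 0 members were called relative to the library's own share by edgeR (1 at an unadjusted p under 0.05, HES4, at 0.45 with SE 0.19; no other tool was run on shares). Without experiment 1 or without experiment 2 edgeR called 0 shares of members. For JAG1, a lower share stood beside a higher level.

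CB-6644 gave no call among the members, in a comparison with few or no calls at all. T>C reads of 0 of 7 members were called in AsPC-1 at 4 h, 0 of 9 in T3M-4 and 0 of 7 in AsPC-1 at 12 h, beside 0% of 11649, 13444 and 12204 genes by edgeR, 482, 569 and 473 genes at an unadjusted p under 0.05 and 0, 5 and 20 genes by DESeq2. At an unadjusted p under 0.05 stood HES1 and NRARP in AsPC-1 at 4 h, none in T3M-4 and JAG1 at 12 h, and DESeq2 called 0 members. Labelled shares gave 0 members as well, beside 3.38% of 11486 genes in AsPC-1 at 4 h and 0% of 13162 and 12030 genes in T3M-4 and at 12 h, where 350 and 573 genes were at an unadjusted p under 0.05. The share of HES4 came nearest, lower by 0.90 on the log2 scale in AsPC-1 at 4 h (SE 0.30, edgeR adjusted p = 0.0959).

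HES1 had lower mean T>C reads in each of these 3 comparisons, none of them called. A shared sign was not particular to HES1. In AsPC-1 at 4 h, T3M-4 and AsPC-1 at 12 h, JAG1 was at log2 -0.09, -0.21 and -0.54. HES4 was at -0.64, -0.01 and -0.23 and NRARP at 0.48, 0.22 and 0.23. In AsPC-1 at 4 h HES1 had 202, 125, 143, 148 and 156 CPM with CB-6644 and 226, 228, 189, 199 and 180 CPM in DMSO, where 4 of the 5 treated libraries lay under the lowest control (log2 -0.39, SE 0.15, edgeR adjusted p = 0.979). In T3M-4 it had 163, 148, 293 and 308 CPM with CB-6644 and 248, 333, 387 and 389 CPM in DMSO (log2 -0.57, SE 0.27, edgeR adjusted p = 0.994). In both T3M-4 batches the treated libraries were under the controls of their own batch. In all reads the groups did not overlap, with 31.3, 26.3, 43.9 and 44.2 CPM against 48.5, 66.6, 55.2 and 55.6 CPM (log2 -0.63, SE 0.21, edgeR adjusted p = 0.9997). The number of all genes without such overlap was not counted. At 12 h in AsPC-1 HES1 had 204, 211, 74.8 and 89.8 CPM against 253, 215, 125 and 162 CPM. The groups overlapped there, but HES1 was lower in each of the 4 pairs of the same number (log2 -0.38, SE 0.38). With the replicate as a block it was at -0.48 (SE 0.20, edgeR adjusted p = 0.84).

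JAG1 was lower in the libraries of 12 h of CB-6644 in AsPC-1 and the groups did not overlap, but it was not called. How many of all genes lacked overlap in the same way was not counted. JAG1 had 40.02, 44.5, 35.8 and 37.3 CPM of T>C reads with CB-6644 and 63.6, 56.1, 54.2 and 56.7 CPM in DMSO (log2 -0.54, SE 0.16, edgeR adjusted p = 0.998), and all reads did not overlap either (log2 -0.47, SE 0.18). At 4 h the difference was -0.09 (SE 0.18), and a difference between the times was not tested. NRARP was at 0.48 (SE 0.18, edgeR adjusted p = 0.979) in AsPC-1 at 4 h, 0.23 (SE 0.25) at 12 h and 0.22 (SE 0.17) in T3M-4. HEY1 in T3M-4 had 17.7, 27.0, 21.9 and 11.01 CPM with CB-6644 and 33.2, 43.6, 21.1 and 18.6 CPM in DMSO (log2 -0.58, SE 0.34), which overlap.

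NVP-2 cut the labelled share of almost every gene, and among the members called lower HES1 lost the least of its share in both lines. The control libraries are the same DMSO libraries as for CB-6644 at 4 h. In AsPC-1, 6 of 7 members were called lower, beside 96.9% of 11241 genes, and in T3M-4 8 of 8, beside 91.8% of 11995 genes, so the counts are those of the background. The share of HES1 was 24.4%, 22.7%, 20.6% and 17.0% with NVP-2 in AsPC-1 and 48.5%, 50.6%, 49.2%, 47.9% and 47.0% in DMSO, a log2 difference of -1.20 (SE 0.16, edgeR adjusted p = 1.17e-05) where the median gene was at -3.04. In T3M-4 it was 24.1%, 21.6%, 44.1% and 37.1% against 75.5%, 71.5%, 80.5% and 80.0%, a difference of -1.28 (SE 0.27, edgeR adjusted p = 0.00106) where the median gene was at -2.97. HES1 lay at the 97.1st and 92.7th percentile of all genes for this difference, and relative to the library its share was higher by 1.81 in AsPC-1 (edgeR adjusted p = 2.81e-06) and by 1.77 in T3M-4 (adjusted p = 0.00939). Against the batch 2 controls described below, the share of HES1 in AsPC-1 differed by -1.05 and -0.94, both called. The groups were far apart in both lines, and the 2 T3M-4 batches differed, with the NVP-2 libraries of experiment 1 the lower ones.

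Every other member called lower lost more of its share than HES1. NRARP went from a mean of 42.2% to 2.67% in AsPC-1 (log2 -3.97, SE 0.33) and from 55.9% to 3.68% in T3M-4 (-3.92, SE 0.40). It was the only member called lower relative to the library in both lines, at -0.93 (edgeR adjusted p = 0.0236) and -1.09 (adjusted p = 0.00588) relative to it. JAG1 went from 38.7% to 4.17% (-3.21, SE 0.22) and from 49.4% to 4.85% (-3.34, SE 0.72). NOTCH1 was at 2.67% and 2.84% with NVP-2 (-3.40 and -3.61), NOTCH2 at 1.15% and 2.05% (-3.63 and -3.16), HES4 at 0.677% and 0.52% (-3.92 and -4.07), and HEY1 in T3M-4 at 3.31% (-3.68, SE 1.07). JAG2 fell by 2.76 in T3M-4 (SE 0.39) and was at -1.22 in AsPC-1 (SE 0.76, edgeR adjusted p = 0.137), close to HES1 but not called, on few reads. All shares named as lower were called by edgeR at adjusted p from 4.17e-08 to 0.00697.

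**Figure D4:**
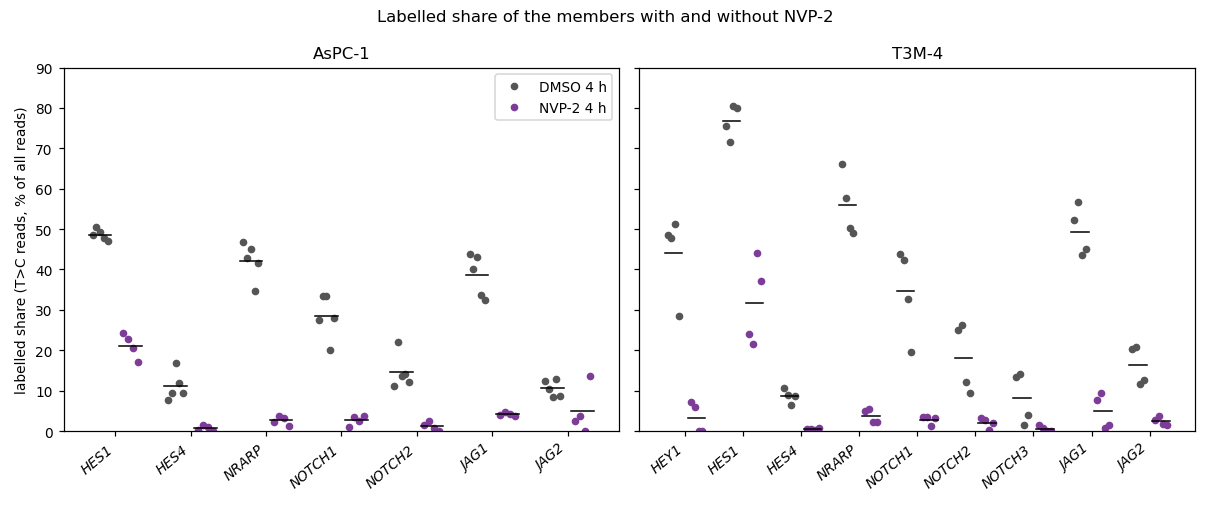
Labelled share in percent of each member in DMSO and NVP-2 libraries at 4 h, with 1 point per library and a bar at the group mean, for both lines. With NVP-2, HES1 stays between 17.0% and 24.4% in AsPC-1 and between 21.6% and 44.1% in T3M-4. The highest single library of another member shown is at 13.6% in AsPC-1 (JAG2) and 9.46% in T3M-4 (JAG1).

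All reads, which follow total RNA, changed in another order, and among the members HES1 fell most. HES1 had 11.9, 7.20, 6.03 and 4.76 CPM of all reads with NVP-2 in AsPC-1 and 48.2, 49.0, 40.9, 37.6 and 35.2 CPM in DMSO (log2 -2.47, SE 0.27, edgeR adjusted p = 0.000356). In T3M-4 it had 7.94, 10.8, 9.93 and 8.26 CPM against 48.5, 66.6, 55.2 and 55.6 CPM (log2 -2.61, SE 0.17, edgeR adjusted p = 0.000158). Treated libraries lay below every control in both lines. Called lower on all reads were 2 of 7 members in AsPC-1, beside 8.39% of 14095 genes, and 2 of 9 in T3M-4, beside 4.91% of 15653 genes. A bulk library cannot tell fewer cells of a type from less RNA per cell, and without a spike-in CPM are relative to what else was in the library.

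The second member called was JAG1 in AsPC-1 (log2 -0.58, SE 0.16, edgeR adjusted p = 0.0446) and NRARP in T3M-4. NRARP had 7.60, 8.32, 8.14 and 6.66 CPM of all reads with NVP-2 in T3M-4 and 20.4, 19.5, 17.8 and 17.3 CPM in DMSO (log2 -1.28, SE 0.14, edgeR adjusted p = 0.00133). In AsPC-1 it was at -1.08 (SE 0.40, edgeR adjusted p = 0.106). HEY1 in T3M-4 had 4.65, 5.37, 3.94 and 2.29 CPM against 10.1, 13.02, 4.72 and 7.45 CPM, at -1.11 (SE 0.35, edgeR adjusted p = 0.126) and, with the experiment as a block, -1.08 (adjusted p = 0.00906), in a fit that called 2476 genes in place of 807. Each NVP-2 library of HEY1 lay below the DMSO libraries of its own batch. JAG2, NOTCH2 and HES4 in T3M-4 were at 0.11 (SE 0.43), 0.20 (SE 0.28) and 0.13 (SE 0.23) on all reads, although the labelled share of each was lower.

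**Figure D5:**
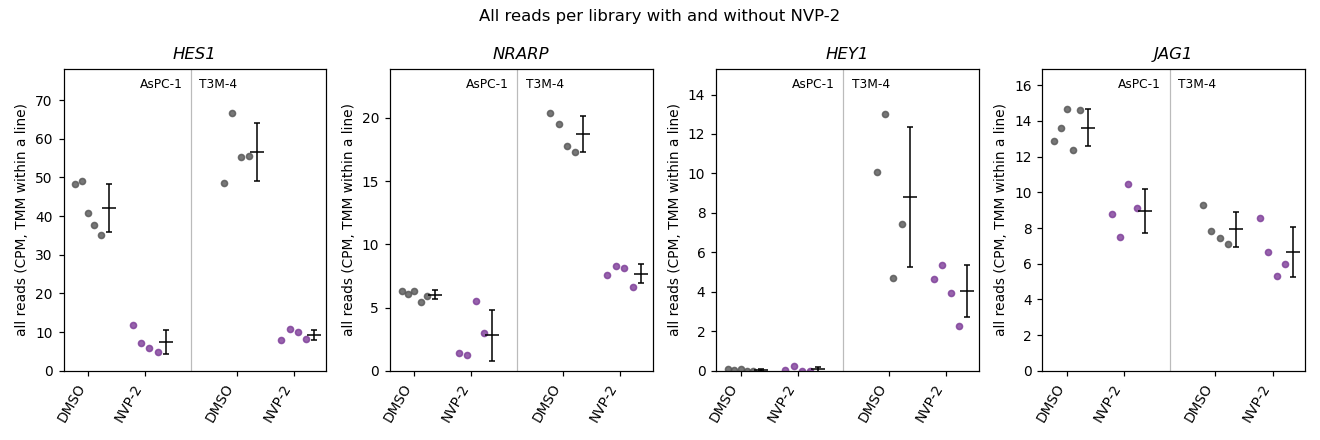
All reads of HES1, NRARP, HEY1 and JAG1 in CPM in DMSO and NVP-2 libraries at 4 h of both lines, with 1 point per library and the mean and SD beside the points. HES1 drops to between 4.76 and 11.9 CPM in AsPC-1 and between 7.94 and 10.8 CPM in T3M-4, below all DMSO libraries.

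Within the T>C reads themselves, NVP-2 lowered NRARP in both lines. This measure is relative to the other T>C reads of a library, of which NVP-2 libraries had few (a mean labelled share of the library of 1.57% in AsPC-1 and 2.24% in T3M-4). NRARP had 2.13, 3.73, 14.5 and 3.78 CPM with NVP-2 in AsPC-1 and 28.6, 24.0, 26.8, 20.8 and 26.6 CPM in DMSO (log2 -2.0, SE 0.49, edgeR adjusted p = 0.01), and without NVP-2 replicate 2.1, the library at 14.5 CPM, it was at -2.93 and called. In T3M-4 it had 18.2, 17.8, 13.8 and 10.4 CPM against 91.4, 78.8, 77.8 and 74.3 CPM (log2 -2.37, SE 0.31, edgeR adjusted p = 0.000684). Reads were counted over 3′UTR exons, and the 3′UTR of the canonical NRARP transcript overlaps an lncRNA gene on the opposite strand (ENSG00000288234). The counting is not stated to use strand.

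Called lower on T>C reads were 2 of 7 members in AsPC-1, beside 17.6% of 11498 genes, and 1 of 8 in T3M-4, beside 14.2% of 12242 genes. The AsPC-1 calls were NRARP and JAG1, which had 22.2, 28.4, 36.1 and 31.5 CPM against 54.7, 50.2, 59.2, 46.0 and 51.6 CPM (log2 -0.76, SE 0.24, edgeR adjusted p = 0.0305), with no overlap. Over all genes 1488 were higher and 2018 lower in AsPC-1 and 1523 and 1740 in T3M-4. With T>C reads scaled by all reads, 6 were higher and 10823 lower in AsPC-1 and 9 and 10671 in T3M-4, the median gene moved to -3.26 and -3.09, and 7 of 7 and 8 of 8 members were lower.

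The NVP-2 libraries of AsPC-1 were all of batch 2 and their DMSO controls all of batch 1, so drug and batch cannot be told apart in that pair. Against batch 2 controls, the NEG libraries of experiment 3 or the DMSO libraries of 12 h, T>C reads of NRARP were at -2.19 (edgeR adjusted p = 0.0128) and -2.24 (adjusted p = 0.0137), and all reads of HES1 at -2.73 (adjusted p = 0.00427) and -2.41 (adjusted p = 0.00327). JAG1 lost its call against NEG on T>C reads (-0.62, adjusted p = 0.0934) and against both on all reads (adjusted p = 0.142 and 0.145).

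In T3M-4 the NVP-2 libraries of the 2 batches differed for HEY1, HES1 and JAG1. Endothelial markers there summed to 1.19 to 1.57 CPM of all reads with NVP-2, above DMSO, and their part in these results was not tested. T>C reads of HEY1 were 16.4 and 12.9 CPM in batch 1 and 0 and 0 in batch 2 (56, 56, 0 and 0 reads), against 33.2, 43.6, 21.1 and 18.6 CPM in DMSO. HES1 had 93.8, 92.8, 340 and 208 CPM, at -0.85 overall (SE 0.42, edgeR adjusted p = 0.163), -1.56 in batch 1 (adjusted p = 0.0146) and -0.46 in batch 2 (adjusted p = 0.284). JAG1 had 32.8, 25.2, 2.98 and 5.66 CPM, at -0.78 overall (SE 0.63, adjusted p = 0.388), -0.06 in batch 1 and -2.66 in batch 2 (adjusted p = 0.044). With the experiment as a block 3 members were called in place of 1: NRARP, HES1 (-1.02, edgeR adjusted p = 0.0224) and HEY1 (-2.94, adjusted p = 0.0348, a fitted value that depends on libraries at 0). A difference between lines in the response to NVP-2 was tested as an interaction, and edgeR called 0 of 8 members, beside 0.851% of 13159 genes, with HEY1, which AsPC-1 hardly expressed, the 1 member at an unadjusted p under 0.05. DESeq2 called 0 of the 8 as well.

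A list of 62 other Notch pathway genes was examined beside the 10 members. After dTAG in AsPC-1, T>C reads of 0 other pathway genes rose and 3 fell of 45 tested: LFNG, a Fringe glycosyltransferase that modifies Notch receptors (log2 -1.30, SE 0.23, edgeR adjusted p = 0.00154), TLE3, a Groucho-type corepressor that HES proteins recruit (-0.68, SE 0.13, adjusted p = 0.00361), and DTX4, a Deltex-family ubiquitin ligase (-0.63, SE 0.14, adjusted p = 0.0112). Over all genes 54 were higher and 227 lower of 11696. Without experiment 1 edgeR called 0 of the 3, and without experiment 3 LFNG alone, while 9 pathway genes were lower when scaled by all reads. Of the 9 proteases tested, which cut Notch receptors and ligands or belong to γ-secretase, 0 passed. With CB-6644 edgeR called 0 of the pathway genes on T>C reads. On labelled shares in AsPC-1 at 4 h, 1 of 9 proteases was called lower. So were 1 of 16 genes of the nuclear complex and 1 of 9 of endocytosis and ubiquitin, beside 3.38% of 11486 genes called. Relative to the library, 0 shares of pathway genes were called.

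Between the lines, 15 other pathway genes were higher in T3M-4 and 14 lower of 55 tested on all reads, beside 4718 higher and 3899 lower of 15464 genes, a share near that background. The smallest p-values belonged to HES2, another HES repressor gene (log2 5.59, SE 0.38, edgeR adjusted p = 1.16e-06), DLL3, a ligand gene that inhibits Notch within its own cell and is near 0 in T3M-4 (adjusted p = 4.02e-06), MIB2, an E3 ligase that drives ligand endocytosis (4.00, SE 0.41, adjusted p = 1.8e-05), and MAML2, a Mastermind coactivator gene (-2.08, SE 0.22, adjusted p = 1.93e-05). Of 5 further HES and HEY genes tested, 4 were higher in T3M-4 and 1 lower.

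After NVP-2, T>C reads of 6 pathway genes were higher and 5 lower of 44 tested in AsPC-1, and 8 higher and 6 lower of 51 in T3M-4, relative to the other T>C reads and beside the counts over all genes given above. Against the batch 2 controls the AsPC-1 counts were 4 higher and 4 lower with NEG, and 3 and 5 with DMSO of 12 h, of 43. The γ-secretase subunit gene APH1A was higher in both lines, at 1.05 (SE 0.22, edgeR adjusted p = 0.00461) in AsPC-1 and 2.74 (SE 0.29, adjusted p = 0.000294) in T3M-4. The protease gene ADAM10 was higher in AsPC-1 (1.60, SE 0.32, adjusted p = 0.00339) and the corepressor gene CTBP2 lower (-0.80, SE 0.18, adjusted p = 0.00619). In T3M-4 the Fringe gene RFNG (2.26, SE 0.57, adjusted p = 0.0142) and the E3 ligase gene MIB1 (1.48, SE 0.38, adjusted p = 0.015) were higher. DLK2 in AsPC-1 and HES6 in T3M-4 were called lower near 0 reads, and no fold is given. Labelled shares were lower for 43 of 43 tested pathway genes in AsPC-1 and for 43 of 50 in T3M-4, the general fall described above.

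The genes most like HEY1 in T3M-4, over the 16 libraries without NVP-2 and 14497 genes, were CXCL1, a chemokine gene (Pearson r = 0.885 on log2 CPM of T>C reads), MTMR4 (0.884) and CNTNAP3 (0.873). For HES1 they were CAMK2N1 (0.948), SERPINB3 (0.922) and BAIAP2L2 (0.904). These correlations describe libraries that share treatments and batches, and carry no test.

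On GRCh38 with GENCODE v44, HES1 (ENSG00000114315.4) lies on chromosome 3 at 194136148 to 194138732, plus strand, with the 3′UTR of its canonical transcript at 194138231 to 194138732. JAG1 (ENSG00000101384.12) lies on chromosome 20 at 10637684 to 10673999, minus strand, with its 3′UTR at 10637684 to 10639500. NRARP (ENSG00000198435.4) lies on chromosome 9 at 137299631 to 137302271, minus strand, with its 3′UTR at 137299631 to 137301586. HEY1 (ENSG00000164683.19) is a minus-strand gene. The 3′UTR intervals of JAG1 and NRARP are those of the canonical transcript too, while the authors added up reads over all 3′UTR exons of a gene. Reads of these genes come from the 3′UTR alone, so neither splice forms nor the intracellular fragments of the receptors can be seen.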

How the data were processed

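SLAM-seq was measured in 62 libraries of 2 lines, in 12 groups taken from the sample labels. The authors made 3′ end libraries, mapped single-end reads to hg38 and counted them with slamdunk, run with its defaults, over the 3′UTR exons of GENCODE v44. The deposited tables, 1 of T>C reads and 1 of all reads per line, hold raw counts that the authors added up by gene. The strand setting of the counting is not given in the sources used here. Empty unnamed columns (18) were left out. The all-reads column of AsPC-1 dTAG replicate 3.1 held the T>C values of another library and was not used, so shares and all reads have 9 dTAG libraries in AsPC-1.

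Counts of all genes were tested with edgeR 4.0.16 (filterByExpr, TMM, glmQLFit, glmQLFTest; R 4.3.3) within the 2 groups compared, and a gene was called at a p-value under 0.05 after Benjamini-Hochberg adjustment. The SE of a log2 fold change is its size over the root of its F statistic. CPM were scaled within a line. The labelled share was tested on T>C counts with the log of the gene's all reads as offset, for genes with at least 10 reads in every library, and relative to the library with TMM added. DESeq2 1.42.0, no filter, another scaling, left-out libraries, batches and blocks were alternatives. Scripts were tested on simulated counts. Counting error weighs most where reads are few, as for HEY1 and NOTCH3 in AsPC-1, T>C reads of NOTCH2, and NVP-2 libraries. There was no 4sU-free library and no spike-in, so the background of conversions and RNA per cell are unknown.

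Per the study's description the AsPC-1 dTAG libraries come from 3 experiments and those of T3M-4 from 2; several libraries share an experiment, and nothing says that they came from separate cultures, so p-values measure the spread between libraries, which may be technical. Deviations of libraries with the same experiment number correlated in every comparison (0.316 to 0.65) except NVP-2 in AsPC-1 (-0.00449), where the numbers name different batches. In T3M-4 the number is also the labelled batch.

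The members, the pathway list and the tests were chosen with earlier results of these data known. All 10 members are described. Of the pathway list, up to 4 genes of smallest p among those called are named per comparison, and those in counts of 5 or fewer, except those lower in labelled share with CB-6644. A result for 1 gene of that list is not reported here.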

Additional observations from a re-analysis of the deposited data

Results flagged for a closer look

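Of 188 groups of 4 to 10 libraries tested for a single library far from the rest (Dixon's test at 95%), 13 were picked out, where chance picks about 1 in 20. The causes were not tested.

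In T3M-4, the labelled share of HEY1 was 28.5% in DMSO replicate 2.2, with the others between 47.9% and 51.4%. T>C reads of HES1 were 134 CPM in dTAG replicate 1.1, with the others between 211 and 224 CPM, so without that library the lower level after dTAG is smaller. JAG1 had 65.0 CPM in dTAG replicate 2.2, with the others from 47.0 to 49.1 CPM. The same replicate had a labelled share of NOTCH1 of 21.4%, against 36.7% to 39.3%. The share of HES1 in NEG replicate 2.1 was 80.3%, against 72.5% to 73.7%.

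In AsPC-1, T>C reads of NRARP were 14.5 CPM in NVP-2 replicate 2.1, with the others between 2.13 and 3.78 CPM, and its share was 44.5% in dTAG replicate 3.2, against 34.1% to 37.6%. HES4 had 19.3 CPM of T>C reads in NEG replicate 3.1 (others 3.41 to 9.86), 21.1 CPM in DMSO 12 h replicate 1 (others 8.99 to 10.6) and a share of 12.0% in dTAG replicate 1.1 (others 4.39% to 8.11%). JAG2 had 6.0 CPM in the same DMSO 12 h replicate 1, with the others from 1.14 to 1.46 CPM. The share of NOTCH2 was 22% in DMSO replicate 1.2 (others 11.1% to 14.1%), and that of JAG1 was 42.6% in DMSO 12 h replicate 2 (others 37.6% to 38.3%).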

How the results depend on the processing

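Numbers of members called depended most on scaling and on the number of libraries. After dTAG in AsPC-1, 1 member, JAG1, was called on T>C reads, 2 others in its place, HES1 (-0.83) and NOTCH1 (-0.60), when scaled by all reads, 2 with library set and experiment combined as a block (chosen after the data were seen), 0 in batch 1 alone, 0 in batch 2 alone, and 0 to 1 with an experiment left out (0 without experiment 1 or 3). Of labelled shares there, 4 were called, 0 relative to the library, where HES1 turned to 0.043 and JAG1 to 0.013, and 0 to 5 with an experiment left out (0 without experiment 1 or 2). After NVP-2 in AsPC-1, 2 were called on T>C reads, 7 when scaled by all reads, 1 against NEG of experiment 3, and 1 to 3 with a library left out. JAG1 kept its call in 4 of 9 such fits (adjusted p up to 0.0693; lost without NVP-2 replicate 1.1 or DMSO replicate 1.1, 1.2, 1.3 or 2.2) and NRARP in 9 of 9. Of shares, 6 were called, 2 relative to the library, where HES1 turned to 1.81, and 6 to 7 with a library left out. Of all reads, 2 were called, and 1 against DMSO 12 h. After NVP-2 in T3M-4, 1 was called on T>C reads, 2 on all reads, 8 when scaled by all reads, 4 in batch 1 alone, 3 in batch 2 alone, 3 with the replicate block, and 1 to 3 with a library left out (2 without NVP-2 replicate 2.1, 3 without 2.2). Of shares, 8 were called, 2 relative to the library, where HES1 turned to 1.77 and JAG2 to 0.12, and 8 to 9 with a library left out. With CB-6644 every alternative gave 0. Between the lines 6 to 6 were called, and 0 to 0 in the interaction, with a library left out. Between the lines, 7 were called by DESeq2 (HES1 added) and 7 with NEG in place of DMSO (NOTCH2 added). HEY1 after dTAG in T3M-4 was 1.75 on T>C reads, 1.27 on all reads, and 1.59 to 1.85 with a library left out. Beside the calls given with their results, the replicate block changed no member's call in the tested comparisons whose numbers pair libraries. In NVP-2 of AsPC-1, whose libraries share only a number, it gave 3 members on T>C reads and 3 on all reads in place of 2. Genes called after dTAG in AsPC-1 were 281 by edgeR, 478 by DESeq2, 447 with the experiment block, 941 when scaled by all reads, 911 with the combined set and experiment block, and 103 and 16 in the batches alone. The causes were not tested, except that batches alone and left-out libraries have fewer samples. Depth limits HEY1 and NOTCH3 in AsPC-1 and T>C reads after NVP-2.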
